A study of Sus scrofa with 12 samples.

Results

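Angiotensinogen, encoded by AGT, was measured by 1 of the 27558 probe sets of the array, probe set 15232252, chosen as the probe set listed under that symbol alone. It was followed across 12 arrays of left ventricular muscle from 13-month-old female pigs, beside ARV1, a gene close to it on the chromosome (1 probe set, 15232224). Both were selected on their values in these same 12 arrays (the signal in control and paced muscle), so their levels and differences are given as a description, with no test. Paced pigs (the label EXP) had undergone ablation that left them in complete atrioventricular block and carried a pacemaker set to VDD, a mode that senses the atrium and paces the ventricle. Control pigs (the label CTL) had a sham procedure. The ventricular lead lay on the right ventricular septum and the atrial lead in the right atrial appendage, and the protocol text says this of all pigs. Whether sham pigs carried leads was not settled by the labels. After 6 months, septal and free wall muscle of the left ventricle was sampled, so each region had 3 control and 3 paced arrays, in 4 groups. The series names 6 pigs per treatment. The labels give neither the breed nor which free wall and septum arrays came from the same pig, so p-values measure only the spread between these arrays.

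Angiotensinogen is a secreted protein of the serpin family that has lost protease inhibition and serves as the only precursor of the angiotensins. Angiotensin I is cut from its end, the angiotensin-converting enzyme ACE trims this to angiotensin II, and other peptidases make shorter peptides. Angiotensin II acts mainly through the receptor AGTR1 and raises vessel tone, aldosterone, myocyte growth and matrix deposition. Most circulating angiotensinogen comes from the liver, while heart, fat, kidney and brain also make it.

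The median signal ranged from 4.30 to 4.45 over the arrays on the deposited log2 scale, on which a step of 1 is a 2-fold change. Free wall paced array 2 stood apart. Its score on principal component 1 was 45.3, with the other arrays between -22.3 and 19.2, and it had an array weight of 0.24, against 0.63 or more elsewhere. Without it, 19 of the 115 pathway genes described further on changed sign in the free wall, and values without it are given beside the larger free wall differences that it moved most. The 8 measured cardiomyocyte markers, among them MYH7, MYL2 and MYBPC3, averaged 11.56 to 11.76 in every array.

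AGT signal was lower in paced than in control muscle in both regions, by a similar amount. In the free wall, control arrays 1, 2 and 3 read 8.54, 8.92 and 9.08, and paced arrays 1, 2 and 3 read 8.42, 8.06 and 7.85 on the log2 scale. All 3 paced arrays lay below all 3 control arrays, with a gap of 0.12 between the lowest control and the highest paced array. The means were 8.85 ± 0.28 (SD, n = 3) and 8.11 ± 0.29 (SD, n = 3), a log2 difference of -0.74 (SE 0.24), or 1.67-fold lower. Without free wall paced array 2 the difference was -0.71, and that array read 8.06, between the other paced arrays of the free wall.

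In the septum, control arrays 1, 2 and 3 read 8.65, 8.48 and 9.16, and paced arrays 1, 2 and 3 read 8.20, 8.44 and 7.70. The groups again did not overlap, but only just: septum control array 2 and septum paced array 2 were 0.04 apart. The means were 8.76 ± 0.35 (SD, n = 3) and 8.11 ± 0.38 (SD, n = 3), a log2 difference of -0.65 (SE 0.24), or 1.57-fold lower. Septum control array 3 and septum paced array 3, the extremes of their groups, weighed most here. Without the former the difference was -0.45 and without the latter -0.44. Over both regions, the 6 paced arrays lay between 7.70 and 8.44 and the 6 control arrays between 8.48 and 9.16. In bulk tissue, fewer cells that make AGT and less AGT RNA per cell cannot be told apart.

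**Figure D1:**
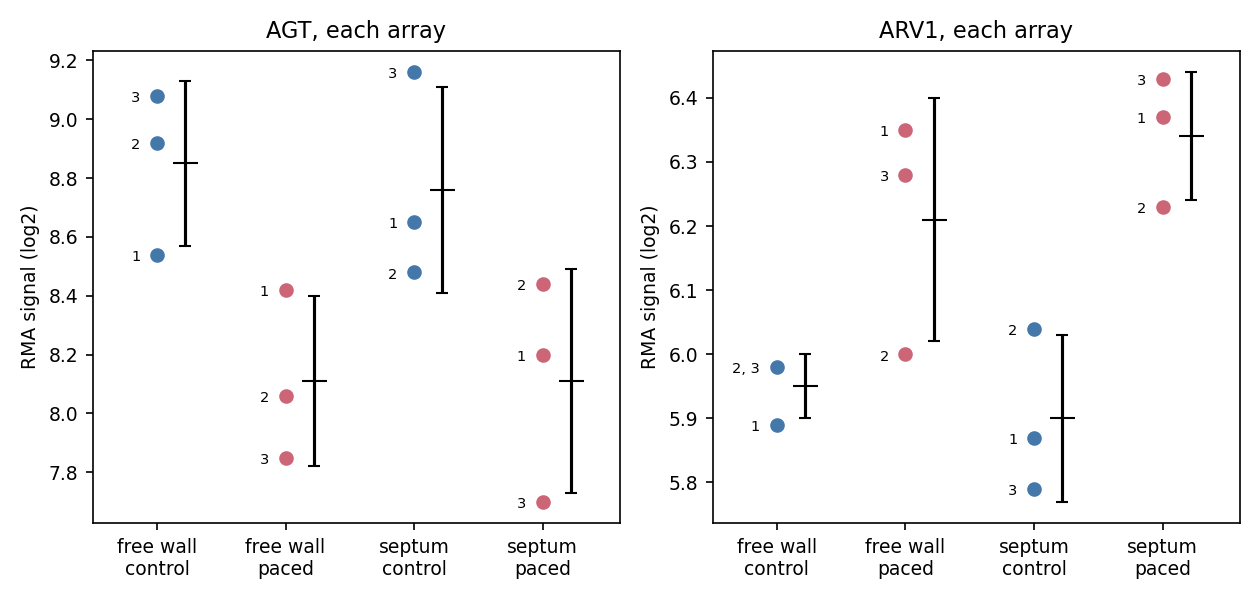
RMA signal (log2, vertical axis) of AGT (left) and ARV1 (right) in each array by group, with the array number beside each point and the group mean and SD (n = 3) as a bar. AGT lay at 8.48 or above in every control array and at 8.44 or below in every paced array. ARV1 was higher in paced than in control arrays within each region, but free wall paced array 2 (6.00) lay below septum control array 2 (6.04).

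AGT was also compared between regions. In control pigs the septum differed from the free wall by -0.08 (SE 0.24) on the log2 scale, and in paced pigs by 0.00 (SE 0.24), and the regions overlapped in both treatments. The order of the group means was free wall control (8.85), septum control (8.76), then both paced groups (8.11 each). Neighbours in that order within a treatment differed by less than the pooled SD within groups of 0.33, and the step from septum control to the paced groups was larger than that SD. The pacing difference in the septum minus that in the free wall was 0.09 (SE 0.34).

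Arrays that carry the same number in both regions took the same place within their treatment at only some of the extremes. Array 3 was the highest control array in both regions (9.08 and 9.16) and array 3 was also the lowest paced array in both (7.85 and 7.70). The lowest control array was array 1 in the free wall (8.54) and array 2 in the septum (8.48). The highest paced array was array 1 in the free wall (8.42) and array 2 in the septum (8.44). Septum minus free wall was 0.11, -0.44 and 0.08 for control numbers 1, 2 and 3, and -0.22, 0.38 and -0.15 for paced numbers 1, 2 and 3. With both regions of a number averaged, control values were 8.59 to 9.12 (mean 8.80 ± 0.28, SD, n = 3) and paced values 7.78 to 8.31 (mean 8.11 ± 0.29, SD, n = 3). The log2 difference of these averages was -0.69 (SE 0.18), or 1.62-fold lower.

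AGT was not alone in such a difference. Of the 20669 probe sets tested, 120 (0.581%) were lower in the paced free wall by at least as much as AGT, 164 (0.793%) were so in the septum and 38 in both. Of these 38, 20, with AGT among them, also had no overlap between control and paced arrays in either region.

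The rest of the angiotensin system was read from 43 names in lists of peptide production and breakdown, of receptors and their partners, and of the mineralocorticoid arm. Of these, 23 besides AGT had a probe set bright enough to test. None of the 23 was called with limma (0 at an adjusted p under 0.05) in the free wall, the septum or the average of both regions. Over all probe sets, 0.00484% were called in the free wall, 0.00968% in the septum and 0.00484% in the average. At an unadjusted p under 0.05, 0 of the 23 passed in the free wall, 0 in the septum and 3 in the average, beside 4.56%, 4.66% and 5.55% of all probe sets. Free wall differences lay on both sides of 0 for these genes, 12 above and 11 below, between -0.55 and 0.33 on the log2 scale. None of the 23 was as low as AGT in the paced free wall, and 1, MME, was lower than AGT in the paced septum.

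Among the enzymes, ACE, which makes angiotensin II, stood at 0.23 (SE 0.20) in the free wall and 0.24 (SE 0.20) in the septum, with overlap in both. In the free wall it read 4.05, 4.75 and 4.88 in control muscle and in paced muscle 4.91, 4.55 and 4.91, so the lowest value was a single control array. Without that array, free wall control array 1, the difference was -0.02. The chymase CMA1 and cathepsin G (CTSG) had no probe set listed under these names and were not analysed here. ATP6AP2, a subunit of the vacuolar proton pump, stood at -0.01 (SE 0.11) and 0.08 (SE 0.11). ENPEP, the aminopeptidase that turns angiotensin II into angiotensin III, stood at 0.33 (SE 0.18) in the free wall and 0.09 (SE 0.18) in the septum. In the free wall its paced arrays 1 and 3 were high, at 6.72 and 6.66, and its paced array 2, at 5.99, was the lowest of the region. Without that array the free wall difference was 0.56.

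MME, or neprilysin, which cuts angiotensin I to angiotensin 1-7 and degrades natriuretic peptides, had the largest septal difference of the 23. Its septum control arrays read 6.04, 5.91 and 5.15 and its septum paced arrays 4.48, 5.87 and 4.25. The difference was -0.83 (SE 0.43) in the septum and -0.11 (SE 0.43) in the free wall, and the groups overlapped (limma adjusted p = 0.992 in the septum). With 1 septum array left out the septal difference lay between -1.33 (without paced array 2) and -0.52 (without paced array 3). CTSA, the lysosomal carboxypeptidase cathepsin A, stood at -0.55 (SE 0.26) in the free wall and -0.01 (SE 0.26) in the septum. Its free wall control arrays read 8.77, 8.28 and 8.49 and its paced arrays 7.75, 7.80 and 8.35, so paced array 3 lay within the control range. The endopeptidases NLN, THOP1 and PREP and the aminopeptidase ANPEP lay between -0.06 and 0.15 in both regions. For NLN a second, dimmer probe set stood at 0.29 in the free wall and -0.14 in the septum.

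Among the receptors, AGTR1 stood at 0.16 (SE 0.19) in the free wall and -0.12 (SE 0.19) in the septum. Its signal ran from 6.93 to 7.75 over the 12 arrays, and both ends of that range were free wall paced arrays (2 and 3). Without paced array 2 the free wall difference was 0.41, and without paced array 3 it was 0.00. AGTR2 and MAS1, the receptors of the counter-regulatory arm, were among the dim probe sets left out. LNPEP, an aminopeptidase that binds angiotensin IV, stood at 0.12 (SE 0.10) and 0.04 (SE 0.10), and AGTRAP, which promotes internalisation of AGTR1, at -0.02 (SE 0.14) and -0.16 (SE 0.14). The arrestins, which bind the phosphorylated receptor, stood at -0.09 (SE 0.18) and 0.07 (SE 0.18) for ARRB1 and at -0.02 (SE 0.19) and 0.06 (SE 0.19) for ARRB2. BDKRB1, a bradykinin receptor, stood at 0.07 (SE 0.21) and -0.22 (SE 0.21).

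Within this system, paced arrays lay apart from control arrays on the higher side only for kinases that phosphorylate activated G protein-coupled receptors. These were GRK5 alone in the free wall, and GRK2, GRK3 and GRK5 in the septum. GRK5 read 7.09, 7.09 and 7.23 in free wall control and 7.46, 7.35 and 7.33 in free wall paced arrays. Septum control arrays read 7.24, 7.02 and 7.16 for it and septum paced arrays 7.34, 7.57 and 7.25. The groups did not overlap in either region, and the highest septum control array was 7.24 against 7.25 for the lowest paced one. Its difference was 0.24 (SE 0.12) and 0.25 (SE 0.12), and 0.24 (SE 0.09) with the regions averaged, or 1.19-fold (limma adjusted p = 0.867). With 1 array of the region left out, GRK5 stayed at 0.20 to 0.29 in the free wall and at 0.16 to 0.32 in the septum. GRK3 stood at 0.22 (SE 0.12) and 0.24 (SE 0.12), without overlap in the septum, and averaged 0.23 (SE 0.09, limma adjusted p = 0.887). GRK2 stood at 0.05 (SE 0.10) and 0.21 (SE 0.10), and its second, dimmer probe set at 0.22 and 0.38. Of all probe sets, 8.16% had no overlap in the free wall and 10.5% in the septum. Of the 9 genes of this list, 1 did so in the free wall and 3 in the septum, all on the higher side, where 3.63% and 5.76% of all probe sets lay.

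In the mineralocorticoid arm the receptor NR3C2 stood at -0.05 (SE 0.14) in both regions. HSD11B2, which inactivates cortisol and thereby protects that receptor, stood at 0.23 (SE 0.23) and -0.03 (SE 0.23), and HSD11B1, which regenerates cortisol, at 0.13 (SE 0.31) and 0.00 (SE 0.31). The free wall value of HSD11B2 was 0.12 without paced array 2. The sodium channel subunit SCNN1A was at -0.11 (SE 0.22) in the free wall and -0.43 (SE 0.22) in the septum, where its paced arrays (3.77, 3.49 and 3.70) lay below its control arrays (3.85, 4.24 and 4.17). Averaged over regions it stood at -0.27 (SE 0.11, limma adjusted p = 0.89). Without free wall paced array 2 its free wall difference was -0.35. SCNN1G, another subunit of that channel, stood at -0.16 (SE 0.17) and -0.27 (SE 0.17), and at -0.37 in the free wall without that array. SCNN1A was the third of the 3 genes at an unadjusted p under 0.05 in the average, with GRK5 and GRK3.

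**Figure D2:**
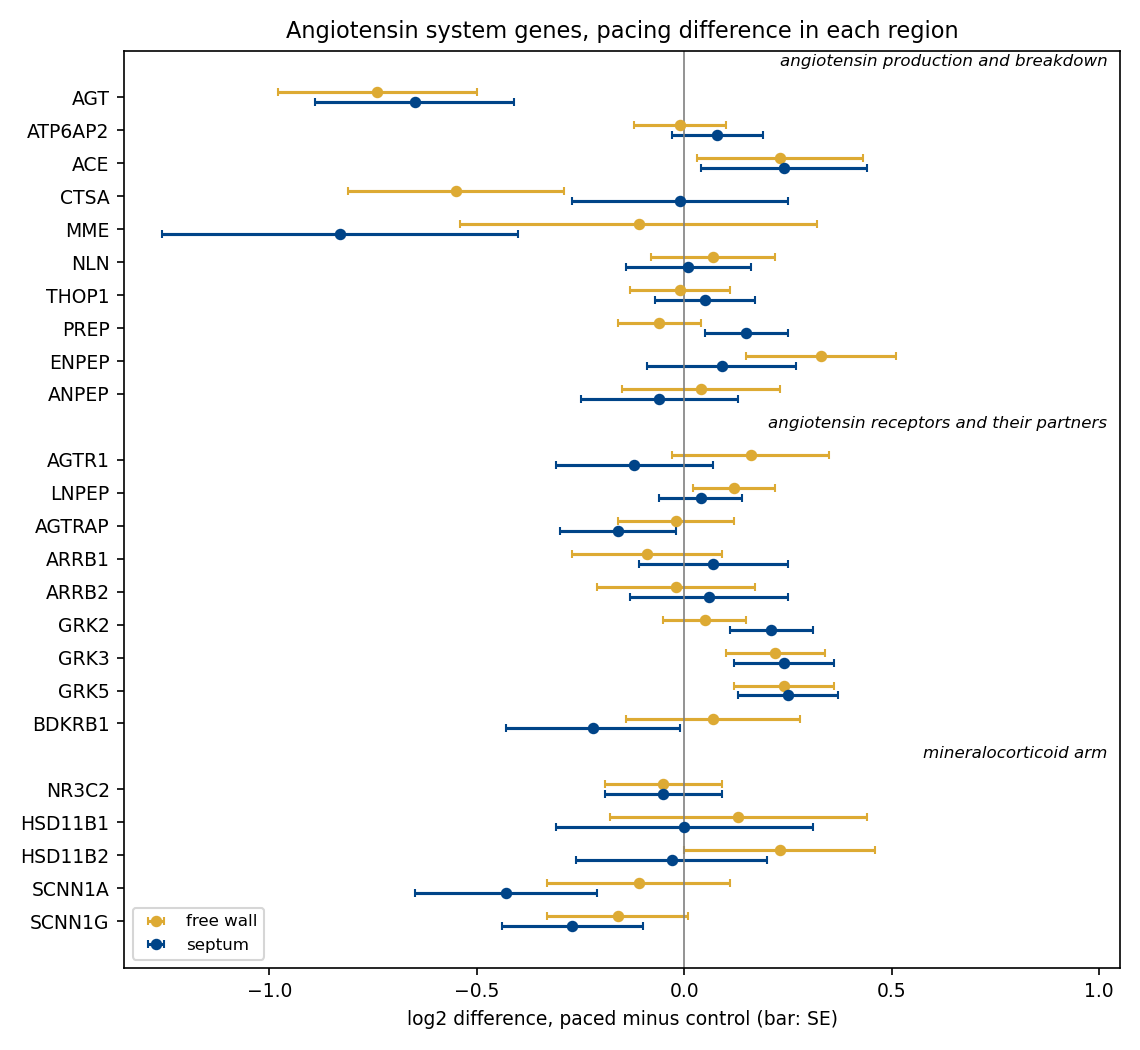
Log2 difference of paced minus control arrays with its SE (horizontal axis, n = 3 per group) for AGT and the 23 other tested genes of the angiotensin system, in the free wall and in the septum. AGT is left of 0 in both regions at -0.74 and -0.65, MME is furthest left in the septum at -0.83, and GRK3 and GRK5 are right of 0 in both.

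Genes known to act below AGTR1 or to switch AGT itself gave no call either. Over all 9 pathway lists, 115 genes besides AGT were tested, and limma called 0 in the free wall, 0 in the septum and 0 in the average. At an unadjusted p under 0.05 these were 5 (0 higher, 5 lower), 2 and 8 of the 115, or 4.35%, 1.74% and 6.96%, beside the 4.56%, 4.66% and 5.55% of all probe sets. The 5 lower in the free wall compare with 2.59% of all probe sets on that side. Their median log2 difference was 0.00, 0.01 and 0.00, and that of all probe sets tested 0.00, 0.00 and 0.00 in the same order. Septum against free wall gave 0 calls among the 115 in control and in paced pigs, as did the difference of pacing effects. At an unadjusted p under 0.05 limma had 2, 6 and 2 of the 115 there, beside 3.67%, 6.73% and 2.75% of all probe sets. Over all probe sets 0% were called in these 3 comparisons.

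Of 28 genes of signalling below the receptor, 14 were above 0 in the free wall and 13 in the septum. RCAN1, a feedback inhibitor of calcineurin and a target of NFAT, read 7.20, 6.77 and 6.25 in free wall control and 6.04, 5.29 and 6.14 in free wall paced arrays. That is -0.92 (SE 0.39, limma adjusted p = 0.998), with -0.55 (SE 0.39) in the septum, where septum control array 1 was high at 7.69. Without free wall paced array 2 its free wall difference was -0.65, and without septum control array 1 its septal difference was -0.06. NOX4, an oxidase that makes hydrogen peroxide, stood at -0.61 (SE 0.32) and -0.35 (SE 0.32), and at -0.19 in the free wall without paced array 2, which was low at 4.47. In the septum 4 of the 28 genes lay higher in paced arrays without overlap and 1, NOX4, lower. There 10.5% of all probe sets had no overlap, and 5.76% lay on the higher side. Of the 4, ITPR3, a calcium channel of the endoplasmic reticulum, stood at 0.28 (SE 0.11) and was the 1 gene of the list at an unadjusted p under 0.05 there (limma adjusted p = 0.992). ADAM17, a protease that sheds growth factors, stood at 0.28 (SE 0.14) and GNAQ, the G protein subunit that AGTR1 couples to, at 0.29 (SE 0.18). In the free wall ITPR3, ADAM17 and GNAQ stood at 0.00 (SE 0.11), 0.03 (SE 0.14) and 0.10 (SE 0.18). CYBB, listed on the array as GP91-PHOX, encodes the catalytic subunit of the phagocyte oxidase. It stood at -0.55 (SE 0.20) in the free wall and 0.23 (SE 0.20) in the septum, with no overlap in either. Free wall paced array 2 was low for it too, at 4.24 where the next lowest free wall array read 5.11, and without it the free wall difference was -0.25.

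Of 15 genes that angiotensin II is known to induce in heart, 11 were above 0 in the free wall and 9 in the septum, with medians of 0.06 and 0.11, and control and paced arrays overlapped for each. The collagen genes COL1A1 and COL3A1 stood at 0.41 (SE 0.29) and 0.55 (SE 0.49) in the free wall. Free wall control array 1 was low for both, and without it they stood at 0.10 and 0.00. COL1A1 stood at 0.18 without free wall paced array 2. In the septum TGFB1, a growth factor of scarring, stood at 0.25 (SE 0.20), the natriuretic peptide gene NPPB at -0.35 (SE 0.32) and SPP1, or osteopontin, at -0.16 (SE 0.15). With 1 septum array left out, these ranged from 0.14 to 0.42, from -0.78 to -0.11 and from -0.24 to -0.01.

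Of 16 transcription factors that regulate the AGT gene, 11 were below 0 in the free wall and 6 in the septum. FOXO1 stood at -0.40 (SE 0.18) in the free wall, with paced arrays of 3.17, 3.57 and 3.59 below control arrays of 3.90, 3.99 and 3.63, and at -0.05 (SE 0.18) in the septum. USF1, which binds the AGT promoter, stood at -0.28 (SE 0.13) and 0.06 (SE 0.13). The glucocorticoid receptor NR3C1 stood at 0.19 (SE 0.18) in the septum, and CEBPD, an acute phase factor, at 0.25 (SE 0.20), or 0.04 without septum paced array 2. With 1 free wall array left out, FOXO1 ranged from -0.50 to -0.26 there and USF1 from -0.39 to -0.15.

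Glucocorticoids induce AGT, and of 13 genes that they also induce, 10 were below 0 in the free wall (median -0.15) and 8 in the septum (median -0.07). Over all probe sets 49.5% and 50.3% were below 0. The part of glucocorticoids in the AGT difference was not tested. FBXO32, a ubiquitin ligase of muscle atrophy, read 9.97, 9.31 and 9.51 in septum control and 8.89, 9.01 and 8.65 in septum paced arrays, without overlap. Its difference was -0.75 (SE 0.20, limma adjusted p = 0.943) in the septum and -0.42 (SE 0.20) in the free wall. ANGPTL4, an inhibitor of lipoprotein lipase, stood at -0.47 (SE 0.21) and -0.37 (SE 0.21), and FKBP5, a chaperone of the glucocorticoid receptor, at -0.61 (SE 0.35) and -0.33 (SE 0.35). FKBP5 stood at -0.29 in the free wall without paced array 2 and at -0.06 in the septum without control array 1. With 1 free wall array left out, FBXO32 ranged from -0.59 to -0.26 and ANGPTL4 from -0.71 to -0.27 there. Of the 13 genes, 3 were above 0 in the free wall and 5 in the septum. The highest of the 5 was DUSP1, a phosphatase of MAP kinases, at 0.55 (SE 0.35). Of 13 acute phase and IL-6 signalling genes, 7 were below 0 in each region, with medians of -0.07 and -0.03. LCN2, an iron-binding protein of inflammation, stood at 0.23 (SE 0.16) in the free wall and -0.28 (SE 0.16) in the septum, or -0.09 there without septum paced array 1.

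In the serpin family, to which AGT belongs by sequence, 12 other genes were tested, with 7 above 0 in the free wall and 6 in the septum. SERPINF1, which encodes the anti-angiogenic factor PEDF and inhibits no protease, stood at -0.64 (SE 0.33) and -0.63 (SE 0.33), with overlap in both regions. Without free wall control array 2 it stood at -0.33 in the free wall, and without septum control array 1, which read 7.33, at -0.28 in the septum. SERPING1, the C1 inhibitor of complement, read 7.31, 7.27 and 7.27 in free wall control and 7.14, 6.51 and 6.94 in free wall paced arrays. It stood at -0.42 (SE 0.19) in the free wall and -0.38 (SE 0.19) in the septum, and at -0.40 (SE 0.13) with the regions averaged (limma adjusted p = 0.867). Without free wall paced array 2 the free wall difference was -0.24 and the averaged one -0.31.

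**Figure D3:**
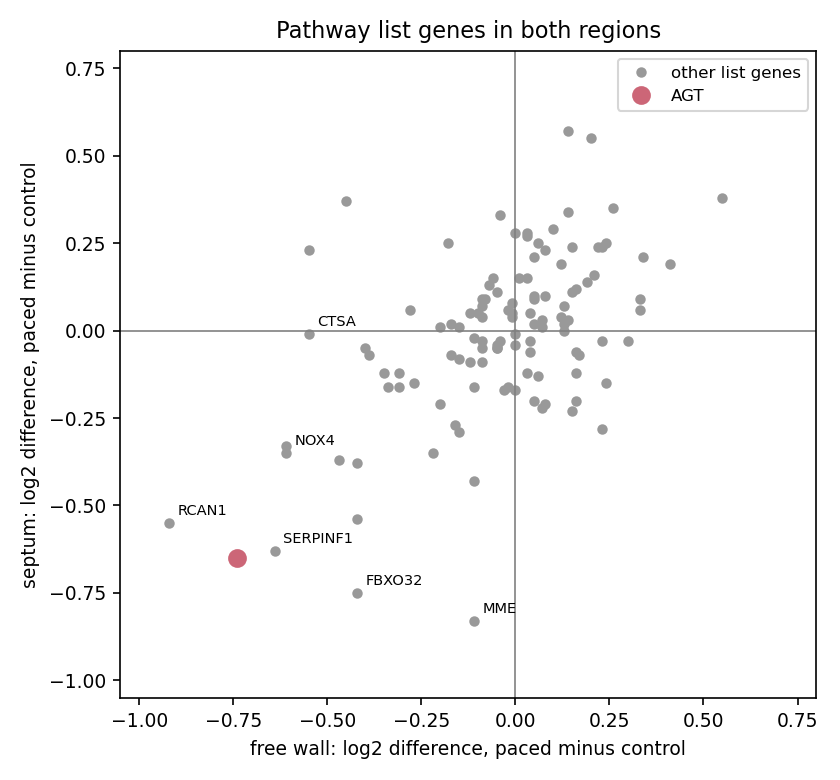
Log2 difference of paced minus control in the free wall (horizontal axis) and in the septum (vertical axis) for AGT and the 115 other tested genes of the 9 pathway lists, 1 point per gene. Most points lie near 0, and AGT at -0.74 and -0.65 lies in the lower left with RCAN1, SERPINF1 and FBXO32.

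Along the chromosome, the order of genes in the RefSeq table of the Sscrofa11.1 assembly was used to find the 5 tested genes on each side of AGT. These were TRIM67, FAM89A, ARV1, TTC13 and C14H1orf198 on one side and COG2, GALNT2, URB2, TAF5L and ABCB10 on the other. ARV1 lay 4 genes from AGT and COG2 was the next gene.

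ARV1, which encodes a protein of sterol transport and of GPI anchor synthesis in the endoplasmic reticulum, differed in the direction opposite to AGT. Its free wall control arrays read 5.89, 5.98 and 5.98 and its paced arrays 6.35, 6.00 and 6.28, so that paced array 2 exceeded the highest control array by 0.02. Its septum control arrays read 5.87, 6.04 and 5.79 and its paced arrays 6.37, 6.23 and 6.43, with a gap of 0.19. The log2 difference was 0.26 (SE 0.12), or 1.2-fold, in the free wall and 0.44 (SE 0.12), or 1.36-fold, in the septum. Without free wall paced array 2 the free wall difference was 0.36. Over the 12 arrays the signals of ARV1 and AGT had a Pearson r of -0.73, and of -0.26 once each group's mean was taken off. The arrays of a treatment share that treatment, so r is only a description of these 12 points.

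The other neighbours varied in direction. COG2, a subunit of the Golgi tethering complex, stood at -0.18 (SE 0.18) in the free wall and 0.00 (SE 0.18) in the septum, and at -0.04 in the free wall without paced array 2. GALNT2, which starts O-linked glycosylation, stood at -0.28 (SE 0.11) in the free wall and 0.24 (SE 0.11) in the septum, without overlap in either region. ABCB10, a mitochondrial transporter, stood at -0.32 (SE 0.12) in the free wall without overlap and at -0.04 (SE 0.12) in the septum. C14H1orf198 had no overlap in the free wall, on the lower side, at -0.09 (SE 0.14). TRIM67, FAM89A, TTC13, C14H1orf198, URB2 and TAF5L lay between -0.22 and 0.30 in both regions. None of the 9 neighbours other than ARV1 was called (0 with limma, adjusted p = 0.992 or above in each region), and 2, GALNT2 and ABCB10, were at an unadjusted p under 0.05 in the free wall and 0 in the septum. Both were lower, as were 2.59% of all probe sets at that p.

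**Figure D4:**
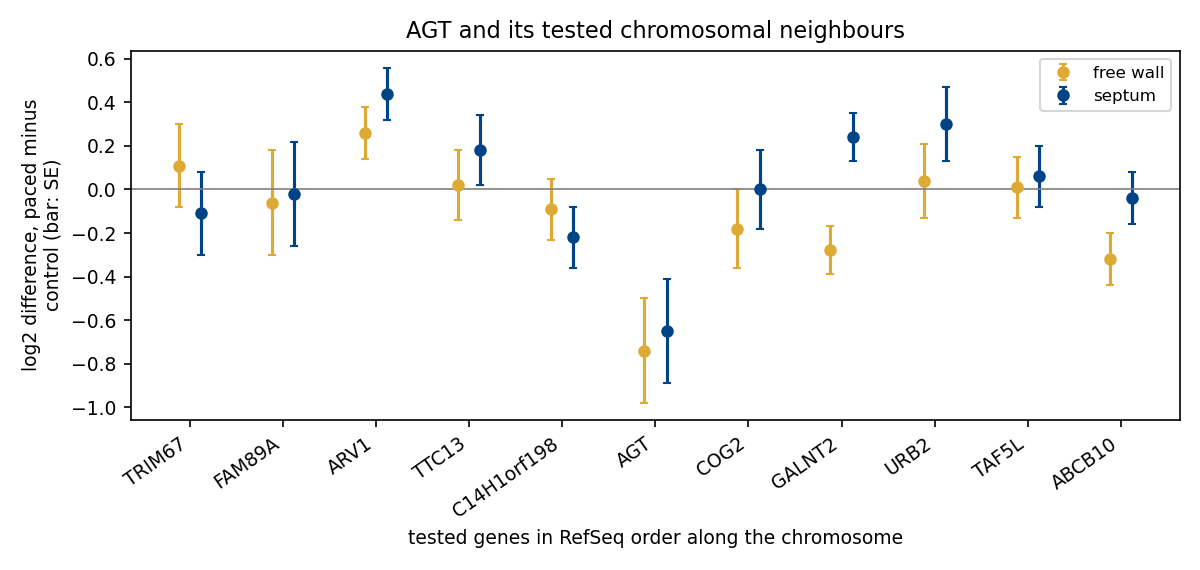
Log2 difference of paced minus control with its SE (vertical axis, n = 3 per group) for AGT and the 5 tested genes on each side of it in chromosomal order, in the free wall and in the septum. AGT is the lowest in both regions, and ARV1 lies above 0 in both at 0.26 and 0.44.

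Likeness to AGT was ranked over named genes, with uncharacterised LOC symbols passed over. Those whose signal followed AGT most closely over the 12 arrays were AMACR (Pearson r 0.92), STOML2 (0.89), TERB2 (0.89), ASB2 (0.89) and SNX29 (0.88). AMACR is a racemase needed to oxidise branched-chain fatty acids, STOML2 a scaffold of the mitochondrial inner membrane, TERB2 a protein of meiotic telomeres, ASB2 a muscle ubiquitin ligase subunit and SNX29 a sorting nexin. All 5 had lower means in paced arrays, and likeness to AGT over both treatments selects for that, so no p is given. AMACR stood at -0.36 (SE 0.13) in the free wall and -0.29 (SE 0.13) in the septum, and SNX29 at -0.52 (SE 0.19) in both. Once group means were taken off, the closest were the mitochondrial malic enzyme ME3 (r 0.95), CCDC62 (0.94), the transcription factor SOX5 (0.93), FAM120A (0.93) and PXYLP1 (0.93), a phosphatase of proteoglycan synthesis. For ME3, r over the 12 arrays was 0.41, and its pacing difference was 0.06 (SE 0.13) in the free wall and -0.04 (SE 0.13) in the septum. No gene was in both sets of 5. Each set was picked as the top of the 10007 named genes less AGT and the LOC symbols.

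**Figure D5:**
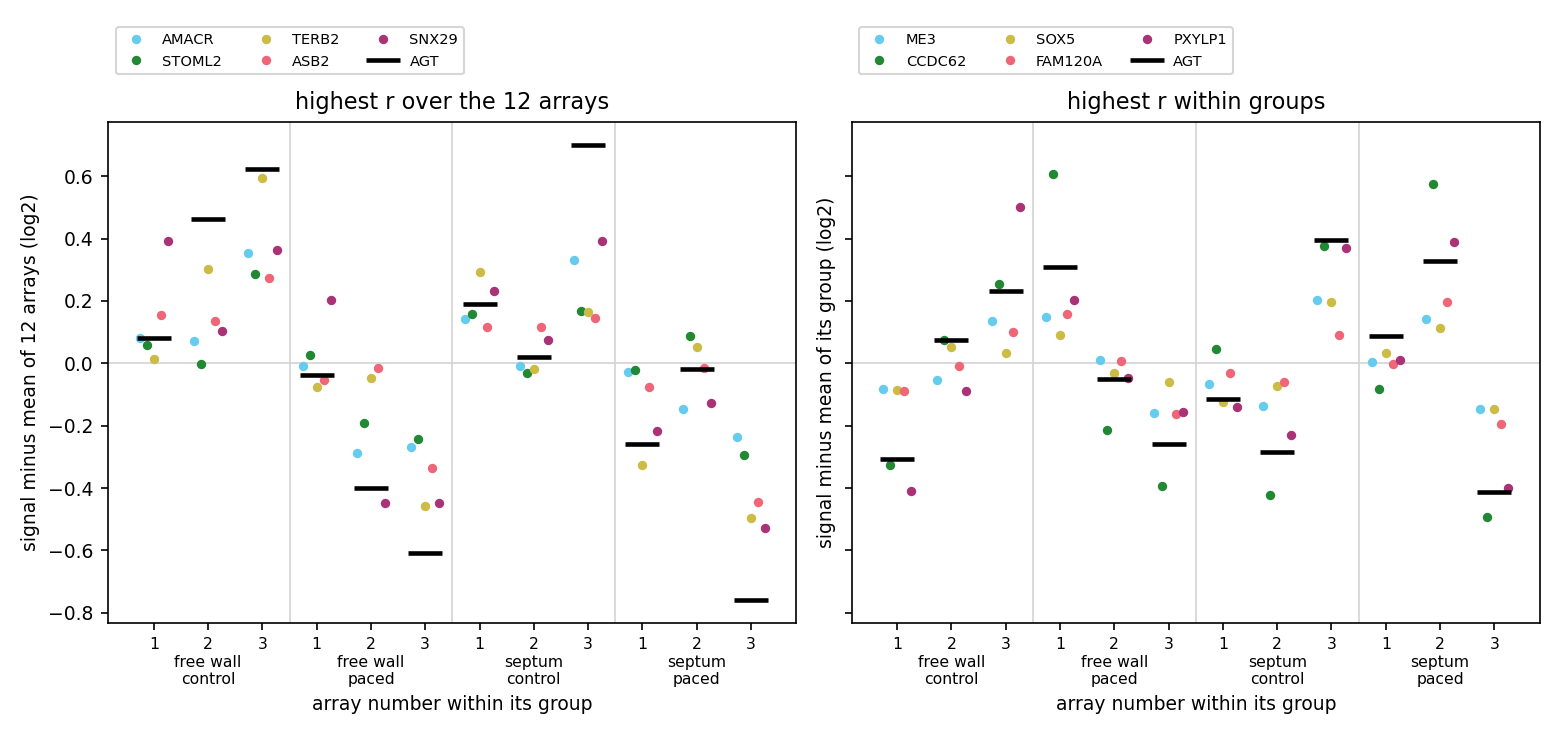
Signal of AGT (black bars) and of the 5 genes most like it (points) in each array, as a difference from the mean of 12 arrays (left) or of its own group (right), in log2. On the left AGT and the 5 genes are mostly above 0 in control and below 0 in paced arrays. On the right the 5 genes move with AGT from array to array within groups.

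Marker lists of other cell types were set beside AGT. The 9 tested macrophage and monocyte markers had 7 below 0 in the free wall, and 4 of 9 were lower without overlap, where 4.52% of all probe sets were. The mean over the 11 of these 13 markers on the array was 4.69 to 4.91 in free wall control and 4.45 to 4.69 in free wall paced arrays, and 4.58 to 4.87 and 4.64 to 4.70 in the septum. The list thus stood at -0.26 in the free wall and -0.02 in the septum, while AGT was lower in both. Its r with AGT over the 12 arrays was 0.37, the highest of the 11 marker lists. The r of the blood list was larger in size, at -0.48, and 1 of its 6 markers on the array was bright enough to test. The part of either list in the AGT difference was not tested.

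Fat and liver, which express much AGT, were read in the same way. The mean of 10 adipocyte markers ran from 4.49 to 4.65 in control and 4.43 to 4.77 in paced arrays of the free wall. In the septum it ran from 4.58 to 4.72 in control and 4.42 to 4.63 in paced arrays. It differed by 0.01 in the free wall and -0.13 in the septum, and its r with AGT over the 12 arrays was 0.02. Of its 9 tested members 3 were below 0 in the free wall and 6 in the septum (median -0.22). In the septum 2 of the 9 were lower without overlap and 0 higher. Both sides together, 10.5% of all probe sets had no overlap there, and 5.76% lay on the higher side. PLIN4, a lipid droplet protein, stood at -0.15 (SE 0.14) in the free wall and -0.36 (SE 0.14) in the septum (limma adjusted p = 0.992). THRSP, a regulator of fatty acid synthesis, stood at -0.29 (SE 0.15) and -0.30 (SE 0.15). The 3 members above 0 in the septum were above 0 in the free wall too. In the free wall and the septum LIPE stood at 0.24 and 0.21, PCK1 at 0.17 and 0.10 and PPARG at 0.04 and 0.16. The part of fat cells in the AGT difference was not tested. PLIN1, which coats the lipid droplet of adipocytes, was highest in free wall paced array 2, at 4.58, and without that array the list stood at -0.09 in the free wall. The liver protein ALB read 3.45 to 3.96 over the 12 arrays, and 6 of the 10 hepatocyte markers on the array were among the dim probe sets left out. The mean of the 10 differed by 0.05 in the free wall and -0.09 in the septum. AHSG, a secreted liver protein, stood at 0.42 (SE 0.24) in the free wall and -0.55 (SE 0.24) in the septum, where its groups did not overlap (limma adjusted p = 0.992). Fibroblast markers averaged 0.16 higher in the paced free wall and 0.19 higher in the paced septum, with r at -0.12. Free wall control array 1 was low for them, and without it the free wall value was -0.05. Without septum control array 1 the septal value was 0.08. Smooth muscle and pericyte markers averaged 0.17 higher in both, with r at -0.36, and stood at 0.09 and 0.07 without control array 1 of each region. Cardiomyocyte markers differed by 0.08 and 0.01, vascular endothelial markers by -0.02 and 0.06, lymphocyte markers by -0.02 and -0.09, nerve and glia markers by 0.02 and -0.05, mesothelial markers by 0.16 and -0.01 and blood markers by 0.18 and 0.07. The mesothelial value in the free wall was -0.02 without paced array 2, and that of blood 0.11. Of 71 tested markers limma called 0 in each region. At an unadjusted p under 0.05 there were 3 in the free wall (4.23%), LUM higher and MSR1 and C1QC lower, beside 4.56% of all probe sets. In the septum there were 5 (7.04%), LUM, ACTA2 and VWF higher and PLIN4 and AHSG lower, beside 4.66%.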

How the data were processed

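RNA of left ventricular free wall and septum was read on 12 Affymetrix arrays, 3 per group. The deposited values are log2 signals that the authors made with RMA (background correction, quantile normalization and probe set summary) in Affymetrix Expression Console 1.4, per the submitters' processing notes. Build and annotation version of the array were not given in the sources used here. RMA makes the distribution of signal alike across arrays, so a shift of all genes would not show. Of 27558 probe sets, 13323 had 1 gene symbol, 357 several and 13878 none, and 7 symbols were updated. The 25% of probe sets with the lowest mean were left out as dim (mean under 3.00), and 20669 were tested.

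limma 3.58.1 in R 4.3.3 (lmFit and eBayes, two-sided, Benjamini-Hochberg over all probe sets tested) was fitted with a mean for each of the 4 groups. For the average of regions, free wall and septum arrays with a shared treatment and number were first averaged, 3 against 3. A gene with several probe sets was read from the brightest. A gene was called at an adjusted p under 0.05. The members and the 9 pathway and 11 marker lists were chosen with earlier results of these data known. The genes named are the tested members of the 3 lists of the angiotensin system, some of the up to 4 members with the smallest p per comparison in the other pathway lists, the 5 neighbours on each side and the 5 genes most like AGT by each measure. Markers, and genes without overlap, were also named after their values were seen. Whether arrays of the same number pair was checked on deviations from group means. Free wall and septum arrays of a number correlated at 0.32, 0.25 and 0.24 in control pigs and at 0.09, -0.17 and -0.18 in paced pigs. These values alone do not settle whether a number marks the same pig. The fit was tested on simulated data with planted changes of 2-fold or more, larger than those of AGT. No array that stood apart was simulated. That run says nothing of smaller differences or of such an array. Signals depend on the probe, so levels of different genes were not compared, and the number of arrays limits the precision. Some members of the lists are not reported here.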

Additional observations from a re-analysis of the deposited data

How the results depend on the processing

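All 226 recomputed differences of AGT and ARV1 moved by less than the pooled SD within groups. They cover 12 results with 18 or 19 alternatives each. Many of these alternatives, such as another filter or prior, could not move a difference of group means. Leaving out 1 of 3 arrays could hardly move it by that SD, so the count says little about robustness. For AGT the differences lay between -0.89 and -0.61 in the free wall and between -0.81 and -0.44 in the septum with 1 array left out. The count of called list members was 0 in every alternative. Counts over all probe sets were small and moved. In the free wall limma called 1 probe set, 2 with array weights, 0 with only the 2 groups compared, 0 with a replicate block and 0 to 1 with 1 array left out. In the septum it called 2, 1 with only the 2 groups compared, 1 with a replicate block and 1 to 4 with 1 array left out. With regions averaged it called 1, 4 when the 12 arrays were kept in 4 groups and 0 to 3 with 1 array left out. Septum against free wall in paced pigs gave 0, 1 with a replicate block and 0 to 7 with 1 array left out, with 7 only without septum paced array 2. Septum against free wall in control pigs gave 0 with and without the replicate block. Whether same-numbered arrays of the 2 regions come from the same pig is not known. In the pacing comparisons, control and paced arrays share only a number.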
